A study of Mus musculus with 5 samples.

Results

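Respiratory complex I, the NADH dehydrogenase of the mitochondrial inner membrane, takes electrons from NADH, passes them along flavin and iron-sulphur centres to ubiquinone and pumps protons as it does so. Its core subunits carry that chemistry, its accessory subunits surround and stabilise the core, and assembly factors bind the growing complex and are absent from the finished one. The peripheral arm is described as an N module, where NADH is oxidised, and a Q module, where ubiquinone is reduced, and the membrane arm as a proximal and a distal part. Neurons draw most of their ATP from oxidative phosphorylation, of which complex I is the entry point.

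The genes described are those whose symbol in the platform annotation starts with Ndufa, Ndufb, Ndufc, Ndufs, Ndufv or Ndufaf, taken from array spots that map to exactly 1 symbol. They were 43 genes on 63 spots, out of 19087 genes on 32042 such spots and 44290 spots in all. Core subunits made up 6 genes on 7 spots, accessory subunits 29 genes on 46 spots, and assembly factors 7 genes on 9 spots. Ndufa4, named as a complex I subunit but now assigned to cytochrome c oxidase (complex IV), was kept apart with its 1 spot. The accessory subunit Ndufb1, the assembly factor Ndufaf8, the Ndufa4 paralogue Ndufa4l2 and the core subunits encoded in mitochondrial DNA were not analysed here.

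RNA came from the nucleus accumbens, the ventral striatal region that takes part in reward learning, of male C57BL6 mice taken through conditioned place preference, a procedure that pairs a drug with a compartment and scores the later preference for it. The tested animals received cocaine at 15 mg/kg on the injection days of the protocol, days 2 to 4, and were mice with a low preference score, while the controls received saline on the same days. Each of 5 two-colour Agilent arrays held RNA of 1 cocaine mouse and 1 saline mouse, and the dyes were exchanged: 3 arrays carried the cocaine RNA in Cy5, and 2 carried it in Cy3. The labels state no age, and the labels of the cocaine RNAs on cocaine-in-Cy5 replicates 1 and 2 are alike except for a suffix, which leaves it possible that both are of 1 animal. Whether the other RNAs were separate animals rests on the design text, which calls the 5 comparisons independent. Whole tissue was used, so fewer cells of a type and less RNA per cell cannot be told apart. Of 8 striatal neuron marker genes measured, 8 had a spot above background, as had 4 of 8 astrocyte, 3 of 7 oligodendrocyte and 2 of 7 microglia markers.

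The deposited values are log2 ratios between the channels, whose numerator is not stated. The main reading takes the ratio to have 1 orientation of treatments on all 5 arrays, and the design text's wording, cocaine compared to saline, makes cocaine the likely but not settled numerator. The values are therefore called numerator side (above 0) and denominator side (below 0). The arrays correlated unevenly. Over all 43790 spots tested, cocaine-in-Cy5 replicates 2 and 3 correlated at r = 0.80 and the cocaine-in-Cy3 arrays at 0.89, but cocaine-in-Cy5 replicate 1 correlated at -0.32 with replicate 3 and at 0.47 with cocaine-in-Cy3 replicate 1. Correlations between the other arrays of opposite orientation ran from -0.73 to -0.88. These correlations rest mostly on dim spots, since 32332 had a recovered log2 brightness under 6.5. The median ratios of those dim spots were -0.65, -0.61 and -0.57 on replicates 1, 2 and 3 with cocaine in Cy5. With cocaine in Cy3 they were 0.58 and 0.65 on replicates 1 and 2. Whether this pattern bears on the numerator was not tested. Because the numerator is not stated and cocaine-in-Cy5 replicate 1 opposed replicate 3, no direction is settled. Each class is therefore also given with every array read as Cy5 over Cy3, where turning the cocaine-in-Cy3 arrays makes a positive value cocaine over saline. Cocaine-in-Cy5 replicate 1 stood apart, so class medians, accessory module medians and some of the fitted ratios are also given without it. The precision of each value rests on 5 arrays.

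The promoters of the complex I genes held matches to 3 motifs of factors known to drive nuclear genes of the respiratory chain. The windows are those of RefSeq for build GRCm38.p6, 300 bases long with 250 before and 50 after the gene's start, and 39 of the 43 genes had one. The motifs searched on both strands were GCGCANGCG for NRF1 (nuclear respiratory factor), CCGGAAG for ETS factors such as GABP, and AAGATGGCG for YY1. The NRF1 letters were in 10 of 39 member promoters (25.6%), against 6.47% of all 27025 promoters. ETS letters were in 5 of 39 (12.8%), against 9.12% of all promoters, and YY1 letters in 5 of 39 (12.8%), against 1.49%. The YY1 matches in member promoters all reached past the gene's start or lay after it, as did some of the other matches. At least 1 of the 3 motifs was in 19 of 39 member promoters (48.7%), against 15.3% of all. None of the 5 core promoters held the NRF1 letters, which were in 8 of 27 accessory and 2 of 6 assembly factor promoters. These are matches of letters and not sites of binding. The 100 bases printed for 5 genes, all upstream of the start and 5′ to 3′ on the gene's own strand, show a core subunit, the accessory subunits at both ends of the ratios reported below, and an assembly factor. Capitals mark the matched motif letters, with overlapping matches joined.
Ndufs3 (core, Q module; ETS; chr2:90904722-90904821, minus strand): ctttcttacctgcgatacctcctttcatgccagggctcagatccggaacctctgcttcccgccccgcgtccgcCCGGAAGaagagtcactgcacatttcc
Ndufb7 (accessory, distal membrane arm; ETS; chr8:83566658-83566757, plus strand): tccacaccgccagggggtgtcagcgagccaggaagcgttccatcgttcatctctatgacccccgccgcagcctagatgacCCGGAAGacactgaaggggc
Ndufs6 (accessory, N module; NRF1; chr13:73328483-73328582, minus strand): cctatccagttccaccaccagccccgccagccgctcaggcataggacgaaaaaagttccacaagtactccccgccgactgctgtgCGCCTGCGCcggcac
Ndufa11 (accessory, proximal membrane arm; NRF1; chr17:56717657-56717756, plus strand): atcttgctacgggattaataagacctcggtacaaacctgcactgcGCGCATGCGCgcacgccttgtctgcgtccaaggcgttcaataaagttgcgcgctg
Ndufaf4 (assembly factor; NRF1; chr4:24897925-24898024, plus strand): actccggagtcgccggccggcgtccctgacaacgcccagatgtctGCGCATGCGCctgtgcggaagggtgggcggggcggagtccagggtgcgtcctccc
The match nearest the start began 15 bases before it in Ndufs6, 20 in Ndufb7, 27 in Ndufs3, 59 in Ndufa11 and 112 in Ndufaf4. In Ndufa11 and Ndufaf4 the same run of letters matched on both strands, so the capitals begin further upstream with the overlapping match.

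Most complex I genes gave a signal in this tissue. Spot brightness, recovered from the exact fractions behind the ratios of 3 arrays, put 45 of the 63 spots (71.4%) above background, here a log2 brightness over 7.5, against 4139 of the 32042 spots with 1 symbol (12.9%). By gene, 38 of 43 had a spot above background, against 3600 of all 19087 genes. All 6 core genes did, as did 28 of 29 accessory genes and Ndufa4. The exception among the accessory genes was Ndufa10, a membrane-arm subunit with the fold of a nucleoside kinase. Of the 7 assembly factor genes 3 had one, Ndufaf2, Ndufaf4 and Ndufaf6. Ndufaf1, Ndufaf3, Ndufaf5 and Ndufaf7 had no spot above background, so their ratios say little about their RNA. Among assembly factors with other names, 1 of 11 measured genes (Ecsit) had a spot above background. Among the other respiratory complexes the count was 2 of 4 genes for complex II, 9 of 9 for complex III, 10 of 10 for complex IV and 15 of 15 for ATP synthase.

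The fitted deposited ratios of the complex I genes lay mostly on the denominator side, as did those of nearly every bright gene. The median fitted log2 ratio was -0.54 for the 7 core spots, -0.50 for the 46 accessory spots and -0.22 for the 9 assembly factor spots, and it was -0.02 over all spots tested. Among spots above background, 45 of 45 complex I spots had a fitted ratio on the denominator side, with a median of -0.54. The same held for 4130 of 4139 gene spots, with a median of -0.47. By array, 45, 35 and 4 of the 45 were below 0 on replicates 1, 2 and 3 with cocaine in Cy5. With cocaine in Cy3 the counts were 45 and 39. Only 2 of 45 were below 0 on all 5 arrays, against 245 of 4139 gene spots. No complex I spot passed limma's test at an adjusted p under 0.05 (0 of 63), where 0% of all 43790 spots did. At an unadjusted p under 0.05 there was 1 of 63, the spot of Ndufa11 above background (unadjusted p = 0.048 in the limma model fitted across all spots), where 2.28% of all spots were past it. That count depended on the scaling: it was 44 of 63 (69.8%) after quantile normalization, where 23.4% of all spots were past it, and 26 of 63 (41.3%) with array weights, where 17% were, with 0 past the adjusted threshold in both. Complex I spots were above background far more often than all spots (71.4% against 9.35%), so these shares compare mostly bright with mostly dim spots. The share among bright gene spots was not counted in those 2 settings. With the deposited ratios fitted over gene spots above background only, 1 of 45 (2.22%) was past an unadjusted p of 0.05 by limma, against 4.49%. With every array read as Cy5 over Cy3, the class medians were -0.15 for core, 0.09 for accessory and -0.39 for assembly factor spots.

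The arrays of a single gene differed by far more than the fitted ratio. Ndufs1, the iron-sulphur subunit that leads electrons away from the NADH site, had log2 ratios of -2.01, -0.34 and 0.29 on replicates 1, 2 and 3 with cocaine in Cy5, and -1.14 and -0.44 on replicates 1 and 2 with cocaine in Cy3. Ndufv1, which binds NADH and the flavin, had -1.89, -0.28 and -0.04 with cocaine in Cy5 and -0.72 and -0.11 with cocaine in Cy3. Ndufs1 thus ran from far on the denominator side to the numerator side within 1 dye orientation. The fitted ratios were -0.74 ± 0.38 for Ndufs1 and -0.58 ± 0.32 for Ndufv1 (SE, 5 arrays). The median SE of the 63 spots was 0.26.

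These ratios followed brightness on each array. Over all gene spots, the median ratio on cocaine-in-Cy5 replicate 1 was -0.63 near a log2 brightness of 6 and -1.86 near 10, and on cocaine-in-Cy3 replicate 1 it was 0.61 and -0.92 at the same brightness. On cocaine-in-Cy5 replicate 3 the trend ran the other way, with -0.59 near 6 and 0.26 near 10. The complex I spots lay along these curves, as the plot of ratio against brightness shows. The comparison was therefore repeated on ratios with each array's brightness trend removed by loess, over the 4139 gene spots above background. The arrays still correlated unevenly on these ratios. Cocaine-in-Cy5 replicates 2 and 3 correlated at r = 0.30 and the cocaine-in-Cy3 arrays at 0.52. Cocaine-in-Cy5 replicate 1 correlated at 0.16 with replicate 2 and at -0.09 with replicate 3. Between cocaine-in-Cy5 replicates 2 and 3 and the cocaine-in-Cy3 arrays, r ran from -0.10 to -0.71.

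**Figure D1:**
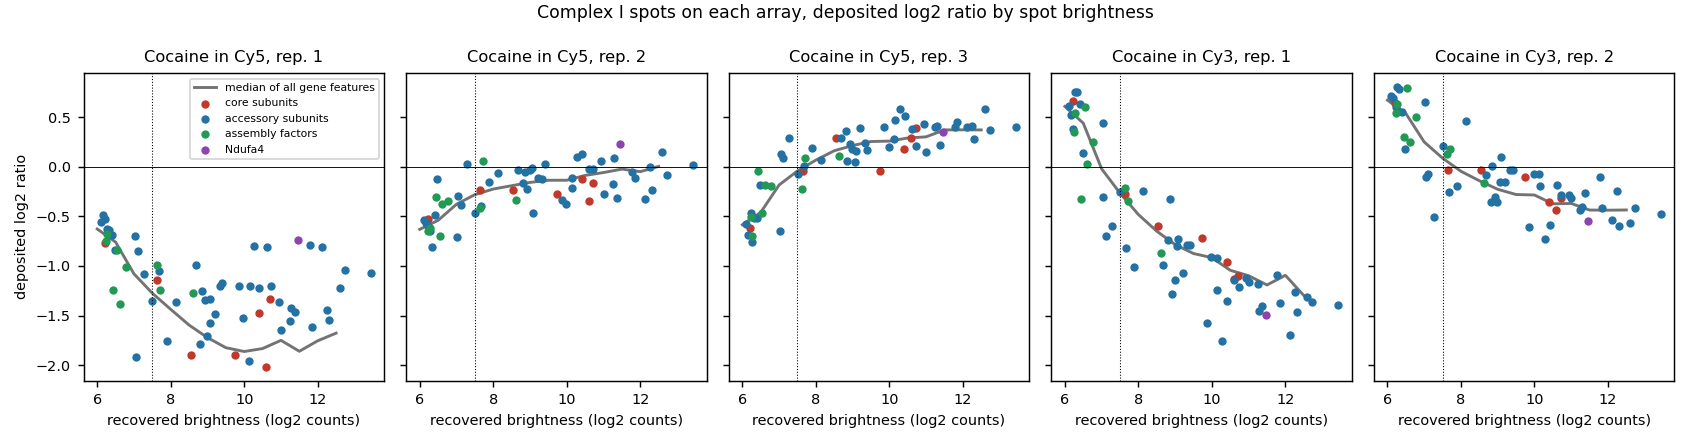
Deposited log2 ratio of the 63 complex I spots (points, coloured by class) against recovered log2 brightness, in 1 panel per array. The grey line is the median of all gene features at that brightness and the dotted vertical line is the background threshold of 7.5. The points follow the line, which falls with brightness on cocaine-in-Cy5 replicate 1 and both cocaine-in-Cy3 arrays and rises on cocaine-in-Cy5 replicates 2 and 3, and on replicate 1 most bright points lie above it.

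With the brightness trend removed, the complex I genes showed no difference between cocaine and saline that passed the test. Of 45 spots 0 passed at an adjusted p under 0.05, where 0% of all 4139 gene spots did. The smallest adjusted p among them was 0.684 by limma, which was also the smallest over all spots. At an unadjusted p under 0.05 there was 1 of 45 (Ndufb5), where 6.74% of the 4139 spots were past it. The median fitted log2 ratio was 0.02 for the 6 core spots, with 5 of 6 on the numerator side. It was 0.04 for the 35 accessory spots, with 22 of 35 on that side, and 0.05 for the 3 assembly factor spots, with 2 of 3. Over all 4139 gene spots the median was 0.0015 and 2092 were on the numerator side. All 45 complex I spots had a 95% interval within a 2-fold difference in either direction, as had 4126 of the 4139 spots, and the outermost bounds among the 45 were -0.46 and 0.61. Read as Cy5 over Cy3 on every array, the class medians were -0.01 for core, 0.05 for accessory and 0.04 for assembly factor spots, again with 0 of 45 past the threshold.

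**Figure D2:**
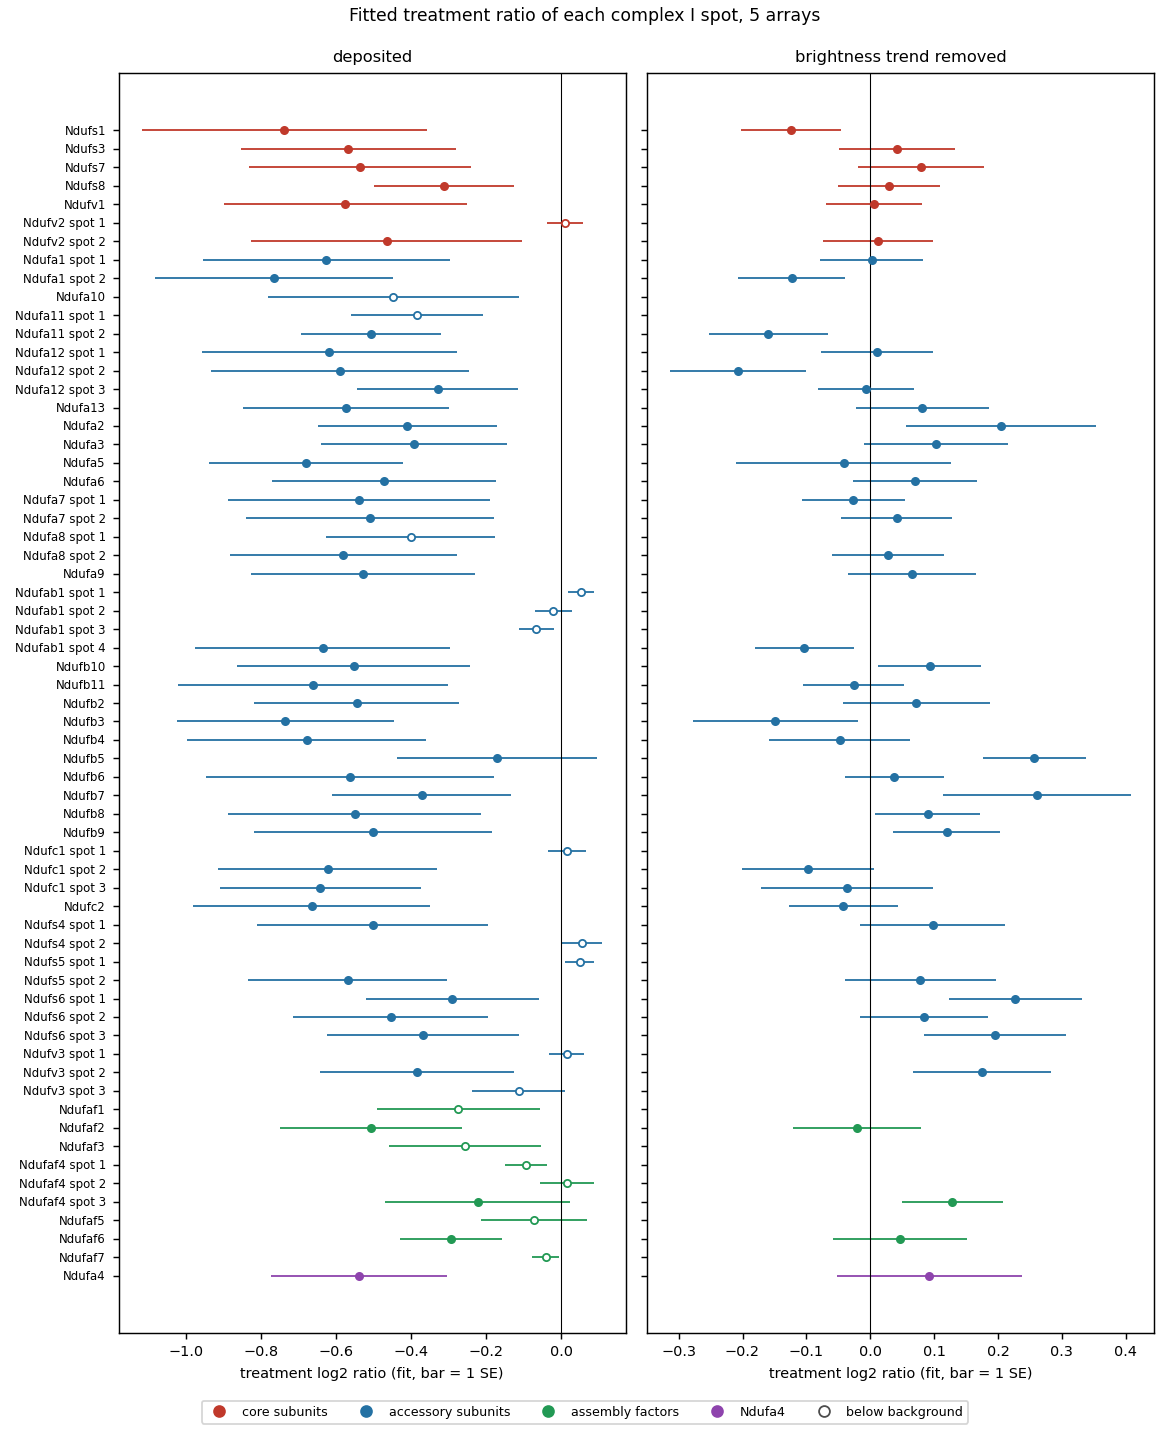
Fitted log2 ratio of each complex I spot over 5 arrays, with a bar of 1 SE on each side, for the deposited ratios (left) and with the brightness trend removed (right, spots above background only). The horizontal scales differ. The deposited ratios of bright spots lie between -0.77 and -0.17, and the trend-removed ones lie on both sides of 0 between -0.21 and 0.26. Open circles are spots below background.

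The core subunits of the N module, Ndufs1, Ndufv1 and Ndufv2, carry the flavin and the first iron-sulphur centres. With the trend removed, Ndufs1 had log2 ratios of -0.22, -0.25 and -0.01 on replicates 1, 2 and 3 with cocaine in Cy5, and -0.10 and -0.08 on replicates 1 and 2 with cocaine in Cy3. It was the only core gene on 1 side of 0 on all 5 arrays, with a fitted ratio of -0.12 ± 0.08 (SE) and a 95% interval from -0.31 to 0.06. Ndufv1 had -0.08, -0.15 and -0.29 with cocaine in Cy5 and 0.19 and 0.18 with cocaine in Cy3, so its side changed with the dye and its fitted ratio was 0.01 ± 0.08. The bright spot of Ndufv2, an iron-sulphur protein next to Ndufv1, had -0.28, -0.06 and 0.12 with cocaine in Cy5 and 0.08 and 0.12 with cocaine in Cy3. Its arrays fell on both sides of 0, and the fitted ratio was 0.01 ± 0.09.

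The core subunits of the Q module, Ndufs3, Ndufs7 and Ndufs8, line the path to ubiquinone, and Ndufs7 and Ndufs8 carry its last iron-sulphur centres. Ndufs7 had trend-removed log2 ratios of 0.46, -0.08 and 0.09 on replicates 1, 2 and 3 with cocaine in Cy5, and -0.04 and 0.05 on replicates 1 and 2 with cocaine in Cy3. Ndufs3 had 0.33, -0.03 and -0.11 with cocaine in Cy5 and 0.05 and -0.01 with cocaine in Cy3. In both genes cocaine-in-Cy5 replicate 1 was the highest array and the others lay near 0. Ndufs8 had 0.21, 0.03 and -0.04 with cocaine in Cy5 and 0.06 and -0.08 with cocaine in Cy3. The fitted ratios were 0.08 ± 0.10 for Ndufs7, 0.04 ± 0.09 for Ndufs3 and 0.03 ± 0.08 for Ndufs8 (SE), and each interval included 0. Without cocaine-in-Cy5 replicate 1 the ratio was 0.0025 for Ndufs7, -0.03 for Ndufs3 and -0.01 for Ndufs8.

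The accessory subunits with the highest trend-removed ratios were Ndufb7, Ndufb5, Ndufa2, Ndufv3, Ndufs6 and Ndufb9. Ndufb7, a distal-arm subunit that faces the intermembrane space, had log2 ratios of 0.92, -0.02 and 0.03 on replicates 1, 2 and 3 with cocaine in Cy5, and 0.09 and 0.33 on replicates 1 and 2 with cocaine in Cy3. Ndufa2, an N-module subunit with a thioredoxin-like fold, had 0.99, 0.06 and 0.08 with cocaine in Cy5 and -0.10 and 0.17 with cocaine in Cy3. In these 2 genes 1 array stood far above the rest. The fitted ratio was 0.26 ± 0.15 for Ndufb7 and 0.20 ± 0.15 for Ndufa2 (SE), and without cocaine-in-Cy5 replicate 1 it was 0.11 and 0.05.

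Ndufb5, a distal-arm subunit, had log2 ratios of 0.14, 0.15 and -0.03 with cocaine in Cy5 and 0.31 and 0.54 with cocaine in Cy3. Its highest arrays were thus those with cocaine in Cy3, unlike Ndufb7 and Ndufa2. The fitted ratio was 0.26 ± 0.08 (SE, 95% interval 0.07 to 0.45, limma adjusted p = 0.684), on the numerator side in 4 of 5 arrays, and it was 0.24 without cocaine-in-Cy5 replicate 1. Read as Cy5 over Cy3 on every array it was -0.17, so that its side depends on the reading of the dyes.

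The N module supplied 3 of these 6 genes. Its 9 bright accessory spots came from 5 genes, with 7 of the 9 spots and 4 of the 5 genes on the numerator side. Over all 35 bright accessory spots, 22 were on that side. Ndufv3, a small N-module subunit, was on the numerator side on all 5 arrays by its bright spot, with log2 ratios of 0.58, 0.02 and 0.01 with cocaine in Cy5 and 0.07 and 0.23 with cocaine in Cy3. Its fitted ratio was 0.17 ± 0.11 (SE), and 0.08 without cocaine-in-Cy5 replicate 1. Ndufs6, which binds zinc, had gene means over its 3 spots of 0.49, 0.14 and -0.13 with cocaine in Cy5 and 0.17 and 0.17 with cocaine in Cy3. The 3 spots of Ndufs6 had fitted ratios of 0.23, 0.08 and 0.19, all on the numerator side. Ndufb9, a distal-arm subunit, had 0.41, 0.13 and 0.11 with cocaine in Cy5 and -0.04 and 0.09 with cocaine in Cy3, with a fitted ratio of 0.12 ± 0.08 (SE). By module, the median fitted ratio of bright accessory spots was 0.10 in the N module (9 spots) and 0.04 in the Q module (5 spots), where 3 of 5 were on the numerator side. It was -0.02 in the proximal membrane arm (10 spots, 5 on the numerator side) and 0.07 in the distal membrane arm (11 spots, 7 on that side). Without cocaine-in-Cy5 replicate 1 these medians were 0.01 in the N module, 0.0028 in the Q module, -0.07 in the proximal and 0.05 in the distal membrane arm. The mean of Ndufs6 was then 0.09, against 0.17 with all arrays, and the ratio of Ndufb9 was 0.07.

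The accessory subunits with the lowest trend-removed ratios were Ndufa11, Ndufb3, Ndufab1, Ndufa12, Ndufc1 and Ndufa1. Ndufa11, which lies where complex I meets complex III in supercomplexes, had log2 ratios of 0.32, -0.14 and -0.0035 on replicates 1, 2 and 3 with cocaine in Cy5, and -0.47 and -0.29 on replicates 1 and 2 with cocaine in Cy3. Ndufb3, of the distal arm, had 0.61, -0.21 and 0.14 with cocaine in Cy5 and -0.65 and -0.31 with cocaine in Cy3. Both genes were high on cocaine-in-Cy5 replicate 1 and lowest on the cocaine-in-Cy3 arrays. The fitted ratios were -0.16 ± 0.09 for Ndufa11 and -0.15 ± 0.13 for Ndufb3 (SE), and neither interval excluded 0. Without cocaine-in-Cy5 replicate 1 the ratio was -0.22 for Ndufa11 and -0.26 for Ndufb3. Ndufa5, a Q-module subunit, moved most without that array, from -0.04 to -0.21, so which genes are lowest depends on it.

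Ndufab1, the mitochondrial acyl carrier protein that also serves fatty acid synthesis, had 0.02, 0.12 and -0.03 with cocaine in Cy5 and -0.35 and -0.14 with cocaine in Cy3 by its bright spot. Its fitted ratio was -0.10 ± 0.08 (SE). Ndufa12, an N-module subunit and paralogue of the assembly factor Ndufaf2, had fitted ratios of 0.01, -0.21 and -0.01 on its 3 bright spots, and a mean of -0.07. Ndufc1, a small proximal-arm subunit, had gene means over 2 bright spots of 0.69, 0.07 and 0.16 with cocaine in Cy5 and -0.64 and -0.24 with cocaine in Cy3. Its mean was -0.07, and 1 of its spots had the widest range between arrays among the 45, at 1.78. Ndufa1, another small proximal-arm subunit, had a mean of -0.06 over 2 bright spots with fitted ratios of 0.0022 and -0.12. Without cocaine-in-Cy5 replicate 1 the mean was -0.16 for Ndufc1 and -0.10 for Ndufa1.

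The bright assembly factor spots gave small ratios. Ndufaf4, which with Ndufaf3 holds the Q module during assembly, had trend-removed log2 ratios of 0.14, 0.31 and 0.07 on replicates 1, 2 and 3 with cocaine in Cy5, and 0.02 and 0.15 on replicates 1 and 2 with cocaine in Cy3. All 5 arrays were on the numerator side, and the fitted ratio was 0.13 ± 0.08 (SE, 95% interval -0.06 to 0.31). Ndufaf2, which takes the place of Ndufa12 before the N module is completed, had 0.37, -0.17 and -0.07 with cocaine in Cy5 and -0.17 and -0.0031 with cocaine in Cy3. Ndufaf6, a protein with similarity to phytoene synthases, had 0.36, -0.16 and -0.22 with cocaine in Cy5 and 0.12 and 0.08 with cocaine in Cy3. Both had their highest array in cocaine-in-Cy5 replicate 1, and the fitted ratio was -0.02 ± 0.10 for Ndufaf2 and 0.05 ± 0.10 for Ndufaf6 (SE). Without that array it was -0.10 for Ndufaf2 and -0.045 for Ndufaf6.

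The assembly factors below background had only deposited ratios. Ndufaf7, a methyltransferase, had -0.68, -0.62 and -0.70 with cocaine in Cy5 and 0.54 and 0.63 with cocaine in Cy3, the ratios of background spots. Ndufaf5, which hydroxylates Ndufs7, had -1.01, -0.34 and -0.20 with cocaine in Cy5 and 0.24 and 0.50 with cocaine in Cy3. The side of both followed the dye orientation on every array. Ndufaf1, which helps to assemble the membrane arm, had a fitted deposited ratio of -0.27 ± 0.22, and Ndufaf3 had -0.26 ± 0.20 (SE). The accessory gene without a bright spot, Ndufa10, had -1.92, -0.29 and 0.13 with cocaine in Cy5 and -0.30 and -0.10 with cocaine in Cy3. Ndufa4, kept apart as a complex IV subunit, had trend-removed ratios of 0.999, 0.27 and 0.01 with cocaine in Cy5 and -0.35 and -0.14 with cocaine in Cy3, with a fitted ratio of 0.09 ± 0.14 (SE) that was -0.05 without cocaine-in-Cy5 replicate 1.

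Complex I spots moved together most on cocaine-in-Cy5 replicate 1. On that array 38 of 45 bright spots (84.4%) were on the numerator side with the trend removed, against 50.1% of all gene spots above background, and their median was 0.33. By class these were 31 of 35 accessory spots, 3 of 6 core spots and 3 of 3 assembly factor spots. On the other arrays the count was 20 of 45 on cocaine-in-Cy5 replicate 2, 24 on replicate 3, 17 on cocaine-in-Cy3 replicate 1 and 27 on cocaine-in-Cy3 replicate 2, with medians between -0.06 and 0.08. Cocaine-in-Cy5 replicate 2, the array with the cocaine label most like that of replicate 1, was therefore not shifted in the same way. Without cocaine-in-Cy5 replicate 1 the median fitted ratio was -0.01 for core, -0.01 for accessory and -0.045 for assembly factor spots, on the denominator side in all 3 classes. That array also stood apart over all features, and what part this had in the shift was not tested. A spot was on 1 side on all 5 arrays in 3 of 45 cases (6.67%), Ndufs1 on the denominator side and Ndufaf4 and Ndufv3 on the numerator side, against 4.66% of the 4139 spots.

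**Figure D3:**
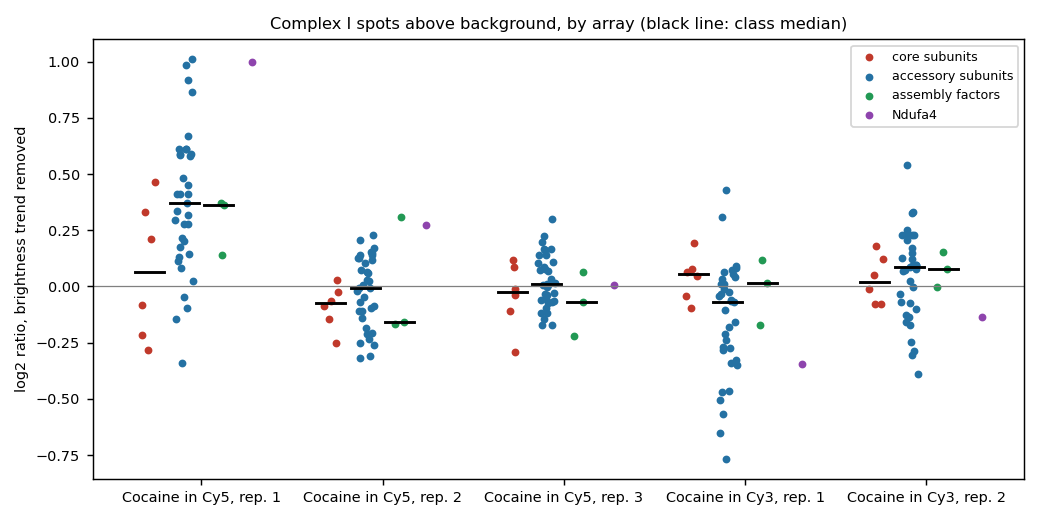
Log2 ratio with the brightness trend removed for the 45 complex I spots above background, by array and coloured by class, with a black line at each class median. On cocaine-in-Cy5 replicate 1 most accessory points lie above 0, with a class median of 0.37, while on the other 4 arrays the accessory medians lie between -0.07 and 0.09.

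Spots of 1 gene could be compared in 13 genes. In 4 of them the deposited fitted ratios lay more than 0.5 apart, by 0.69 in Ndufab1, 0.66 in Ndufc1, 0.62 in Ndufs5 and 0.56 in Ndufs4. Ndufs4, an N-module subunit whose loss in mice gives a Leigh-like brain disease, had a bright spot at -1.21, -0.12 and 0.47 with cocaine in Cy5 and -1.25 and -0.20 with cocaine in Cy3. Its other spot, below background, had -0.63, -0.81 and -0.52 with cocaine in Cy5 and 0.75 and 0.78 with cocaine in Cy3. Ndufs5, a proximal-arm subunit of the intermembrane space, showed the same split, with -0.57 fitted for its bright spot and 0.05 for the other. In each of the 4 genes the spots below background changed side with the dye orientation and the bright ones did not. Of the 18 complex I spots below background, 8 had the ratios of background spots on all 5 arrays. Where all spots of a gene were bright, their deposited fitted ratios lay 0.03 apart in Ndufa7, 0.14 in Ndufa1, 0.16 in Ndufs6 and 0.29 in Ndufa12.

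**Figure D4:**
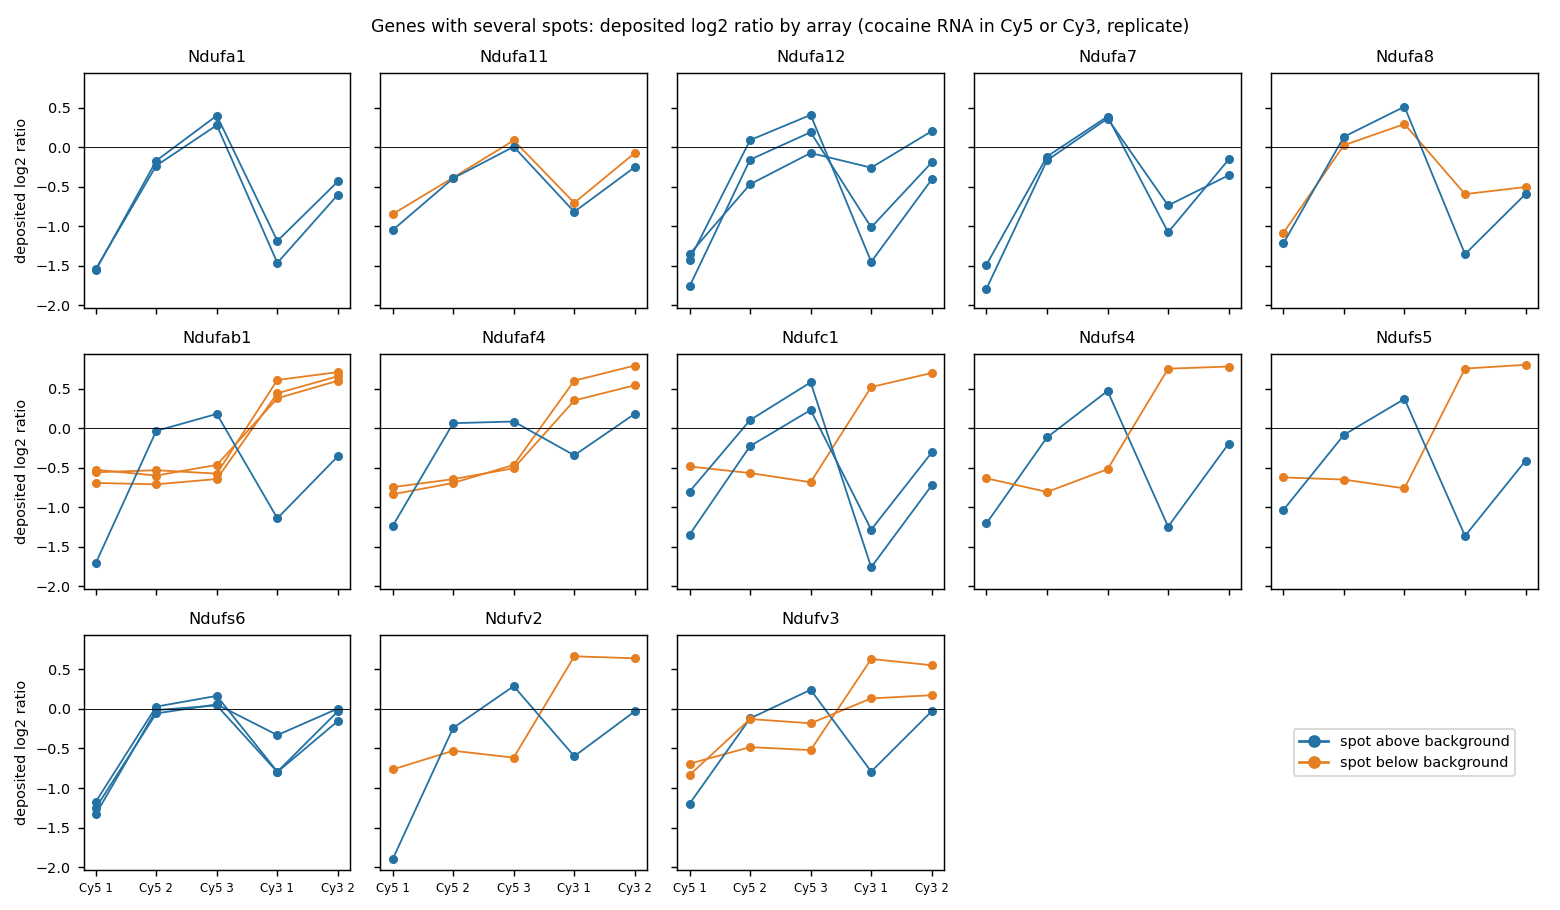
Deposited log2 ratio by array for the 13 complex I genes with several spots, 1 panel per gene and 1 line per spot, in blue for spots above background and in orange for spots below it. Bright spots of a gene follow the same course over the arrays in most panels, less so in Ndufa12, and most orange lines switch from below 0 on the cocaine-in-Cy5 arrays to above 0 on the cocaine-in-Cy3 arrays.

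The other respiratory complexes gave median trend-removed ratios of the same small size, over their genes with a bright spot. The median was 0.01 for 2 genes of complex II, 0.09 for 9 genes of complex III, 0.02 for 10 genes of complex IV and 0.05 for 15 genes of ATP synthase. Uqcr11 (0.19) and Uqcrb (-0.21), small subunits of complex III, were the outermost of complex III. Of the regulators of mitochondrial biogenesis, 2 of 8 genes had a bright spot, Tfam (-0.09), which packages mitochondrial DNA, and Esrra (-0.03), a nuclear receptor. No gene of these lists passed the test with limma at an adjusted p under 0.05, where 0% of all spots did.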

How the data were processed

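Total RNA was extracted with the PicoPure kit and carried through linear amplification with Cy5 and Cy3 labelling, per the labels' protocols, and images were read with Agilent Feature Extraction, per the submitters' processing notes. Which version and settings it had is not given in the sources used here. By the authors' files, the deposited values are uncentred log2 ratios between the channels, whose array medians ran from -0.69 to 0.60. In the 3 cocaine-in-Cy5 columns, the antilog was a fraction of scanner counts or steps of 0.5 counts for 99.99% of spots (relative tolerance 2e-14). The cocaine-in-Cy3 columns hold 6 digits, and their log base was taken to be the same.

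Spots were named through the platform annotation. Of 44290 features, 500 at exactly 0 on all arrays were left out. Ratios were fitted with limma 3.58.1 in R 4.3.3. The model held a mean for the treatment and a term for the dye orientation, leaving 3 residual degrees of freedom. P-values were adjusted by Benjamini-Hochberg over all features at 0.05. The fit was also run on simulated ratios with independent noise and no array that stood apart, so that run cannot show how it handles these arrays. Spot brightness was recovered from the fractions (Python 3.11.15, NumPy 2.4.6, pandas 2.3.3), assuming a spread between arrays of 0.25 on the log2 scale, a chance of a step of 0.5 of 0.2 and a lowest signal of 35 counts. Of gene spots at 7 to 7.5, 1.2% still had background ratios (each array within 2.5 median absolute deviations), against 0% at 7.5 to 8, hence the threshold of 7.5. Each array's trend was removed with loess (span 0.3). Spots of a gene are numbered within it, and gene values are means over its spots above background.

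Members, lists and tests were chosen with earlier results of these data known. Named were every core subunit and assembly factor, the 6 accessory genes most extreme per side with the trend removed, and accessory genes without a bright spot. Also named were genes with spots over 0.5 apart, Ndufa4, and Ndufa5 for its move without cocaine-in-Cy5 replicate 1. With 5 arrays the smallest exact 2-sided p from turning the signs of arrays is 0.0625, so no such test per gene was run. Alternatives covered normalization, background correction, thresholds, the dye term, the reading of the sign, array weights and leaving out arrays.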

Additional observations from a re-analysis of the deposited data

Results flagged for a closer look

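Of 45 complex I spots above background, 1 had an array far from the other 4 in its trend-removed log2 ratios, where chance flags about 1 in 20. It was Ndufa2, the thioredoxin-like N-module subunit, with 0.986 on cocaine-in-Cy5 replicate 1 against -0.10 to 0.17 on the other arrays. The gap to the nearest array was 0.75 of the whole range, above the critical value of 0.71.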

How the results depend on the processing

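No complex I spot passed the adjusted threshold as reported, without any 1 array (0 in each), or under any other alternative except a pair of them. The cocaine-in-Cy5 arrays alone called 11 of 63 complex I spots (17.5%), where 33630 of 43790 features (76.8%) were called. Every array read as Cy5 over Cy3 called 12 of 63 (19%), where 34346 of 43790 (78.4%) were called. Each of these complex I spots was below background, and the cause was not tested. Leaving out 1 array in turn moved the deposited medians from -0.73 to -0.29 for core, from -0.69 to -0.24 for accessory and from -0.34 to -0.07 for assembly factor spots. With the brightness trend removed, the ranges were -0.01 to 0.05 for core, -0.01 to 0.09 for accessory and -0.045 to 0.10 for assembly factor spots. Removing the trend put 30 of 45 bright spots on the opposite side from their deposited ratio. Without cocaine-in-Cy5 replicate 1, 13 of 45 trend-removed ratios changed side. Unadjusted counts over all features varied widely, from 240 without cocaine-in-Cy3 replicate 1 to 34721 with every array read as Cy5 over Cy3, with 998 as reported. They were 10263 after quantile normalization and 7456 with array weights. The trend taken over all features was added after seeing the data and called 0. A slide or scan block could not be run, since the files name none. The treatments were compared within each array, which holds both, and no further pairing was possible because the numbers pair no arrays. Brightness and its threshold are recovered, not measured, which limits statements on dim spots and on spots near the threshold. Among the latter are spots of Ndufs8, Ndufa11, Ndufa12, Ndufaf4 and Ndufaf6.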
